A study of Mus musculus with 12 samples.

Results

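Aggrecan, versican and the genes that make, bind and break down hyaluronan were followed in primary mouse chondrocytes, the cells that build cartilage matrix, over 12 RNA-seq libraries. The group held 10 genes named by function and looked up by Ensembl ID among the 57010 IDs counted: Acan and Vcan (proteoglycans), Hapln1 (link protein), Has1, Has2 and Has3 (hyaluronan synthases), Hyal1 and Hyal2 (hyaluronidases), Cd44 (receptor) and Tnfaip6 (a secreted hyaluronan-binding protein). Of these, 9 passed the filter on low counts and were tested, and Hyal1 had no counts in any library. All cells carried a wild-type genotype. Control, WT and SIRT5F101L mutant were the 3 treatments, with 4 libraries each. WT and SIRT5F101L name the plasmid the cells received, wild type or the SIRT5F101L mutant. SIRT5 is a mitochondrial enzyme that removes acyl groups from lysines. Which gene the wild-type plasmid carried, what the Control cells received, the age and sex of the animals, and whether libraries came from separate cultures are not given in the sources used here, so the p-values measure only the spread between these libraries.

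Hyaluronan is a long unbranched sugar polymer that synthases in the plasma membrane extrude from the cell, using UDP-glucuronic acid and UDP-N-acetylglucosamine. In cartilage, aggrecan binds along a hyaluronan chain through its globular end, link protein locks each aggrecan onto the chain, and CD44 tethers the assembly to the chondrocyte. The sulfated side chains of aggrecan hold water and let cartilage bear load. Versican belongs to the same family of hyaluronan-binding proteoglycans and is typical of looser, provisional matrix, such as that of early limb mesenchyme and of wounds.

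Libraries held 15095357 to 24242139 counts, and 14253 genes were tested. Levels are CPM, the depth-scaled count after TMM scaling between libraries, and levels of different genes were compared only as RPKM, the CPM per kilobase of exon sequence. Sirt5, measured as a check on the labels, had 9 to 16 counts in Control libraries, 1 to 9 in WT and 9 to 19 in SIRT5F101L, so no rise was seen in the libraries labelled with either plasmid (log2 fold changes of -0.86, SE 0.49, and 0.03, SE 0.45, edgeR adjusted p 0.143 and 0.954). Reads were counted on the mouse gene only, and a plasmid insert of another sequence need not be counted there. These low counts therefore neither bear out nor contradict the labels, and do not show whether SIRT5 was overexpressed. WT and SIRT5F101L below mean the libraries so labelled. All 14 chondrocyte markers, a list without Acan, had over 3 counts in at least 1 library of each group. Their summed level was 9250 to 11600 CPM in Control, 2670 to 2800 in WT and 2240 to 2470 in SIRT5F101L, and 13 of 14 fell in each plasmid group, the exception being Sox5, which rose. Summed macrophage and leukocyte markers, of which Itgam was at 0, were at 197 to 232 CPM in Control, 134 to 155 in WT and 144 to 186 in SIRT5F101L, and summed fibroblast markers at 30000 to 35900, 9880 to 11300 and 9520 to 10900 CPM. Endothelial markers summed to between 3.17 and 4.81 CPM in every group. Erythroid markers summed to at most 0.764 CPM in Control and were at 0 in both plasmid groups. In such bulk samples fewer cells of a type and less RNA per cell cannot be told apart. SIRT5F101L replicate 1 stood apart from its group. Its counts differed from the other 3 libraries of its group by 8.19 to 8.92 times sampling noise (median chi-square over genes), but from the WT libraries by 2.61 to 6.27 times, and no other pair within a group exceeded 5.80. The share of its counts on IDs without a symbol was 0.461%, against 0.720% to 0.821% in the other 3 and 0.377% to 0.470% in WT. How its levels depended on transcript length differed too, with a slope of -0.05 log2 CPM per doubling of exon length against 0.07 to 0.09 in the other 3, while WT libraries ran from -0.03 to 0.04 and Control libraries from -0.05 to -0.03, so in this measure it lay in the Control range.

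Tested with edgeR (quasi-likelihood, p-values adjusted by Benjamini-Hochberg over all genes), 7 of the 9 tested members were higher in WT than in Control and 0 were lower, where 28.7% of all genes tested were called higher, 28.1% lower and 56.8% were called in either direction. In SIRT5F101L 6 of 9 were higher and 0 lower, where 30.0% of all genes were called higher, 30.7% lower and 60.7% in either direction. The groups did not overlap for those 7 and 6 members, against 53.5% and 51.3% of all genes. The median log2 fold change of the 9 members was 0.84 in WT and 1.07 in SIRT5F101L, against -0.01 and -0.02 over all genes tested. More than a 2-fold rise was found for Vcan, Has1, Cd44 and Tnfaip6 in both plasmid groups, and for Has2 in SIRT5F101L at 2.09-fold. Called changes of at least 2-fold in either direction made up 16.7% and 17.5% of all genes. In SIRT5F101L the count was 6 without replicate 1 of that group, and 5 in 7 of 16 alternatives, which lost Hapln1. Both plasmid groups were compared with the same Control libraries, so their values are not independent of each other.

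**Figure D1:**
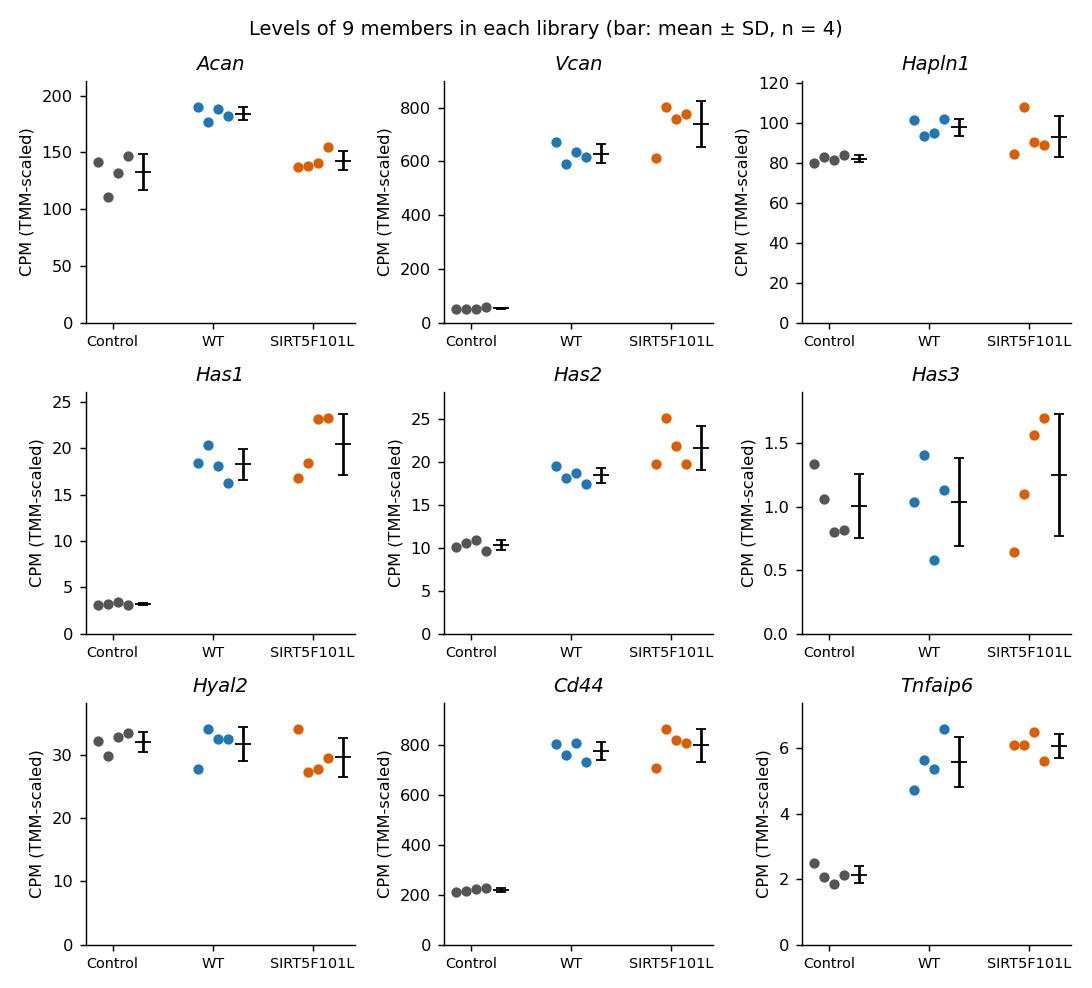
Level of each tested member in CPM (vertical axes, from 0) in the 4 libraries of each group (points), with the mean and SD beside them. Vcan, Has1, Has2, Cd44 and Tnfaip6 are higher in every library of both plasmid groups than in any Control library, while Acan is raised in WT and Hyal2 and Has3 overlap between groups.

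Versican showed the largest rise of the 9 tested members. Vcan (ENSMUSG00000021614) had 52.1, 51.7, 49.7 and 56.3 CPM in Control replicates 1 to 4. It had 674, 590, 633 and 617 CPM in WT, and 613, 803, 759 and 777 CPM in SIRT5F101L. Every plasmid library was more than 10 times above the highest Control library, and SIRT5F101L replicate 1 lay within the WT range rather than with the other 3 of its group. The mean rose from 52.5 ± 2.79 CPM (SD, n = 4) to 629 ± 35.3 in WT, a log2 fold change of 3.58 with SE 0.08 (edgeR adjusted p 5.82e-18), which is 12-fold. In SIRT5F101L it rose to 738 ± 85.3 CPM, a log2 fold change of 3.81 with SE 0.08 (edgeR adjusted p 2.39e-18), or 14.1-fold. Over the 16 alternatives run for each comparison the log2 fold change stayed between 3.49 and 3.62 in WT and between 3.60 and 3.90 in SIRT5F101L. Of 7 fibroblast markers, cells that also make versican, 6 were called lower in both plasmid groups and Pdgfra was higher, and their part in the rise of Vcan was not tested.

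Aggrecan, the main proteoglycan of cartilage, did not follow versican. Acan (ENSMUSG00000030607) had 142, 111, 132 and 147 CPM in Control replicates 1 to 4. It had 190, 177, 188 and 182 CPM in WT, and 137, 138, 141 and 155 CPM in SIRT5F101L. All WT libraries were above all Control libraries, whereas SIRT5F101L libraries overlapped Control. The mean of 133 ± 16 CPM (SD, n = 4) in Control rose to 184 ± 6 in WT, a log2 fold change of 0.47 with SE 0.07 (edgeR adjusted p 1.78e-05). In SIRT5F101L the mean was 143 ± 8.07 CPM and the log2 fold change 0.10 (SE 0.07, 95% interval -0.05 to 0.26, edgeR adjusted p 0.243). Acan was not called lower in either group, while 13 of the 14 chondrocyte markers were called lower in both.

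The regions just before the transcription starts of these 2 proteoglycan genes are shown because their levels parted. They come from RefSeq (GRCm38.p6, which is not the build named in the submitters' processing notes), lie at chr7:79052976-79053225 on the plus strand and chr13:89742513-89742762 on the minus strand, and are printed 5′ to 3′ in the direction of the gene:
Acan: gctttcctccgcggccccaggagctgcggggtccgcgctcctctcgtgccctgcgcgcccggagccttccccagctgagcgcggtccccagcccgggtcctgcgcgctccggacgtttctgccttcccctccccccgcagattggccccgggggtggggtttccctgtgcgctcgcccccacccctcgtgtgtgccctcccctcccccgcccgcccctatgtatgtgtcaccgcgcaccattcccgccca
Vcan: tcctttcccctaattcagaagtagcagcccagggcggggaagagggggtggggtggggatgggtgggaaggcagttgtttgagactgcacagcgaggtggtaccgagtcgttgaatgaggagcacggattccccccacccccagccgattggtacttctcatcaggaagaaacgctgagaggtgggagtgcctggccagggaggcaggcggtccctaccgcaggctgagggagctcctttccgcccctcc
G or C made up 74.4% of the Acan window and 62.4% of the Vcan window. Both strands of the 250 bases were searched for the AP-1 motif TGANTCA. A narrow form of the NF-kB motif (GGG, any 2 bases, TTTCC) was searched too. The cyclic AMP response element TGACGTCA was also searched, but chosen after the windows had been seen. No match to these patterns occurred in either window. Looser forms of the NF-kB motif were not searched, and stretches such as ggggtttccc in the Acan window fall outside the narrow form. Over 32851 RefSeq windows of the same length, 6.75% held the AP-1 motif, 1.41% the narrow NF-kB form and 1.55% the cyclic AMP response element.

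The balance of the 2 proteoglycans was expressed as the ratio of Vcan to Acan per exon length within each library, which does not depend on scaling between libraries. Its log2 was -2.40, -2.05, -2.36 and -2.34 in Control replicates 1 to 4, so aggrecan transcripts outnumbered versican transcripts in each. The log2 ratio was 0.87, 0.78, 0.80 and 0.81 in WT, and 1.21, 1.58, 1.48 and 1.38 in SIRT5F101L. The 3 groups did not overlap, and the sign turned in all 8 plasmid libraries. As means, there were 4.89 Acan transcripts per Vcan transcript in Control, and 1.76 and 2.66 Vcan transcripts per Acan transcript in WT and SIRT5F101L. The ratio is given as a description, with no test. Its size depends on the exon length used for each gene, 7469 bases for Acan and 14462 for Vcan, but its sign in each group was the same with longest transcripts or with undivided counts.

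Link protein changed least among the called members. Hapln1 (ENSMUSG00000021613), whose product fixes aggrecan to hyaluronan, had 80.1, 82.9, 81.4 and 84.1 CPM in Control. It had 101, 93.2, 94.7 and 102 CPM in WT, and 84.7, 108, 90.4 and 88.9 CPM in SIRT5F101L. The lowest SIRT5F101L library stood barely above the highest Control library. Hapln1 rose by a log2 fold change of 0.25 in WT (SE 0.07, edgeR adjusted p 0.00432) and by 0.18 in SIRT5F101L (SE 0.07, edgeR adjusted p 0.0329). The call in SIRT5F101L was lost in 7 of 16 alternatives, among them upper-quartile scaling (0.13), the correction for transcript length (0.10) and leaving out SIRT5F101L replicate 2 (0.10), with an edgeR adjusted p of up to 0.175. Per exon length Hapln1 was below Acan in all 12 libraries, with log2 ratios of -0.48 to -0.08 in Control, -0.65 to -0.50 in WT and -0.46 to -0.02 in SIRT5F101L. At -0.02, SIRT5F101L replicate 2 was nearly level, and its sign depends on the exon lengths used. WT did not overlap the Control range of this ratio, and SIRT5F101L did.

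**Figure D2:**
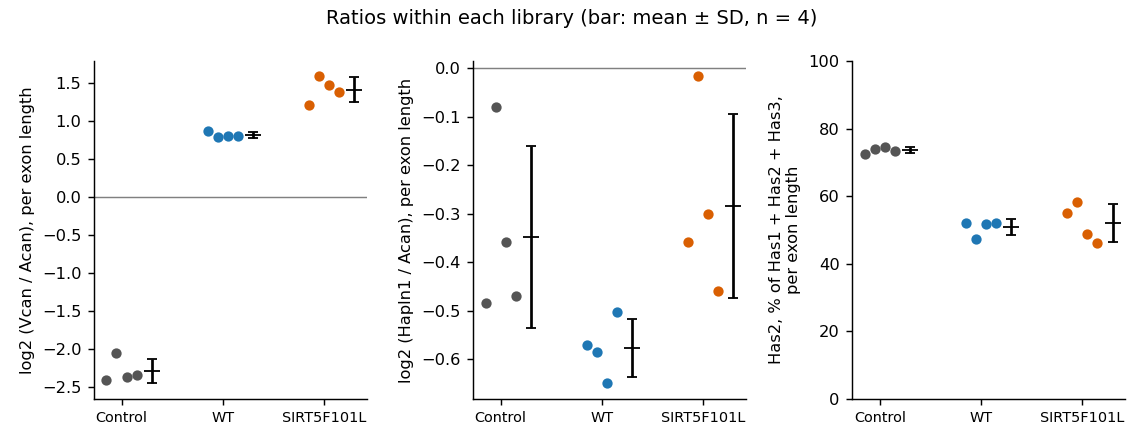
Ratios per exon length within each library (points) by group, with mean and SD: log2 of Vcan over Acan, log2 of Hapln1 over Acan, and Has2 as a percentage of the summed synthases. The Vcan to Acan ratio lies below 0 in all 4 Control libraries and above 0 in all 8 plasmid libraries, and the Has2 percentage falls from a mean of 73.7 to 50.9 and 52.1.

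Of the synthases, Has1 and Has2 rose and Has3, the lowest per exon length in each group, was not called. Has2 (ENSMUSG00000022367), the synthase that supplies most hyaluronan in cartilage, had 10.1, 10.5, 10.9 and 9.61 CPM in Control. Its level was 19.5, 18.1, 18.7 and 17.4 CPM in WT, and 19.7, 25.1, 21.8 and 19.8 CPM in SIRT5F101L. No plasmid library overlapped Control, and all SIRT5F101L libraries lay above all WT libraries, though the nearest values differed by little. Between the plasmid groups 4.02% of all genes showed no overlap, and Has2 was not called (edgeR adjusted p 0.371). The log2 fold change was 0.84 in WT (SE 0.10, edgeR adjusted p 3.21e-07) and 1.07 in SIRT5F101L (SE 0.10, edgeR adjusted p 8.33e-09). An antisense gene, Has2os, overlaps 4.29% of Has2 exon sequence, and without a stated strand setting reads there cannot be assigned with certainty.

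Has1 (ENSMUSG00000003665) encodes a second synthase. It was low in Control, with 3.13, 3.19, 3.41 and 3.11 CPM. WT libraries had 18.4, 20.4, 18.1 and 16.2 CPM, and SIRT5F101L libraries 16.8, 18.4, 23.2 and 23.3 CPM. All 8 plasmid libraries exceeded Control by more than the spread within groups, and the 2 plasmid groups overlapped. Has1 rose 5.67-fold in WT (log2 fold change 2.50, SE 0.13, edgeR adjusted p 1.90e-12) and 6.36-fold in SIRT5F101L (2.67, SE 0.13, edgeR adjusted p 5.71e-13). The sequence before its start is shown because Has1 rose most among the synthases. It is also the member window with a cyclic AMP response element (capitals), 83 to 76 bases before the start. The motif is a palindrome, so it reads on both strands. It was chosen after the windows had been seen, and 1.55% of the RefSeq windows held it. The sequence shown is from RefSeq (GRCm38.p6, chr17:17855206-17855438, minus strand), without the 17 bases that GENCODE M21 places in an exon:
Has1: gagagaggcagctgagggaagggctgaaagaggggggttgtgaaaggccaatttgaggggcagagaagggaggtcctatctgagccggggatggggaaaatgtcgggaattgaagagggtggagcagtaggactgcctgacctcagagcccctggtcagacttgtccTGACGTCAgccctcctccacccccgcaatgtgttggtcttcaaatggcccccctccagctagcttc
The window held neither the AP-1 motif nor the narrow NF-kB form. The match is a description of the letters and not evidence that a factor binds there.

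Has3, the third synthase, had 15 to 23 counts in Control libraries, 10 to 22 in WT and 12 to 39 in SIRT5F101L. These levels, 0.577 to 1.70 CPM over all libraries, overlapped between the groups. Its log2 fold change was 0.05 in WT (95% interval -0.70 to 0.79, edgeR adjusted p 0.922) and 0.33 in SIRT5F101L (-0.40 to 1.06, edgeR adjusted p 0.428). Per exon length, Has2 made up 72.5% to 74.6% of the 3 synthases in Control, 47.4% to 52.2% in WT and 46.3% to 58.3% in SIRT5F101L. Has2 was above Has1 in every Control library by RPKM (2.27 to 2.58 against 0.689 to 0.754). In both plasmid groups the ranges of Has1 (3.59 to 4.51 and 3.72 to 5.15 RPKM) and Has2 (4.11 to 4.60 and 4.65 to 5.91 RPKM) overlapped.

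The hyaluronidases among the members showed no called change. Hyal2 (ENSMUSG00000010047), a membrane-anchored enzyme that starts the cleavage of long hyaluronan, had 32.1, 29.7, 32.7 and 33.4 CPM in Control. Its level was 27.8, 34.0, 32.4 and 32.4 CPM in WT, and 34.0, 27.3, 27.7 and 29.5 CPM in SIRT5F101L. The 3 groups overlapped. The log2 fold change was -0.02 in WT (95% interval -0.19 to 0.16, edgeR adjusted p 0.891) and -0.11 in SIRT5F101L (-0.29 to 0.07, edgeR adjusted p 0.279). Hyal1 (ENSMUSG00000010051), the lysosomal hyaluronidase, was listed at 0 in all 12 libraries. A count of 0 allows up to 3 counts, or 0.120 to 0.195 CPM, for counting error only. In GENCODE M21, 51.9% of Hyal1 exon sequence is shared with Hyal3 and Naa80 on the same strand, and both of these were also listed at 0 in 12 of 12 libraries. Whether the counting assigned reads of this locus was not tested, so the 0 is not a measurement of absence.

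CD44, the main hyaluronan receptor of chondrocytes, was the most abundant member per exon length in every group. Cd44 (ENSMUSG00000005087) had 212, 217, 223 and 228 CPM in Control. It had 807, 764, 811 and 735 CPM in WT, and 709, 865, 820 and 810 CPM in SIRT5F101L. The plasmid groups overlapped each other and lay far above Control. The rise was 3.54-fold in WT (log2 fold change 1.82, SE 0.07, edgeR adjusted p 3.69e-15) and 3.64-fold in SIRT5F101L (1.86, SE 0.07, edgeR adjusted p 2.46e-15). CD44 is also carried by leukocytes, whose summed markers were lower in both plasmid groups than in Control, 8 of the 9 tested being called lower and Cd14 higher, and their part in the Cd44 level was not tested.

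Tnfaip6 (ENSMUSG00000053475) encodes TSG-6, a secreted protein that binds hyaluronan and transfers heavy chains of inter-alpha-inhibitor onto it. It was scarce, with 2.50, 2.08, 1.86 and 2.13 CPM in Control, from 35 to 43 counts. It had 4.73, 5.64, 5.37 and 6.58 CPM in WT, and 6.09, 6.10, 6.49 and 5.61 CPM in SIRT5F101L. All plasmid libraries were above all Control libraries, and the plasmid groups overlapped. Tnfaip6 rose 2.61-fold in WT (log2 fold change 1.38, SE 0.16, edgeR adjusted p 3.98e-07) and 2.84-fold in SIRT5F101L (1.51, SE 0.16, edgeR adjusted p 9.59e-08). The upstream sequences of Cd44 and Tnfaip6, the binding proteins that rose, are shown from RefSeq (GRCm38.p6, chr2:102901666-102901915, minus strand, and chr2:52037863-52038008, plus strand), the second without 104 bases that GENCODE M21 places in an exon:
Cd44: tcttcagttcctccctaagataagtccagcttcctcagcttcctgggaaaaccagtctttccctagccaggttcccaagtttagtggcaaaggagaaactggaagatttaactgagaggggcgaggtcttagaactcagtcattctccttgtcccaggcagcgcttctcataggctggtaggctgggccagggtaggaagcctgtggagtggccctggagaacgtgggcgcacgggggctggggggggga
Tnfaip6: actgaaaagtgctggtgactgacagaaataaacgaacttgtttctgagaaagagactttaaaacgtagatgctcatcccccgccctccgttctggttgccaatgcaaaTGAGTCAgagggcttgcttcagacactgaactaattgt
The capitals in the Tnfaip6 sequence mark an AP-1 motif 142 to 136 bases before the start, which reads as a match on both strands. No other member window held this motif, of the 8 of 10 members with a window, and none held the narrow NF-kB form. GENCODE M21 exons cover all 250 bases of the Hapln1 window and 180 of the Hyal2 window. In that annotation those stretches are not upstream sequence. The Cd44 window had no match to the 3 searched patterns.

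The order of the members by RPKM changed between groups. In Control it ran Cd44 (32.5), Acan (17.8), Hapln1 (13.9), Hyal2 (9.71), Vcan (3.63), Has2 (2.43), Tnfaip6 (1.25), Has1 (0.711) and Has3 (0.157), and no neighbours in this order overlapped. In WT it ran Cd44 (115), Vcan (43.5), Acan (24.7), Hapln1 (16.6), Hyal2 (9.62), Has2 (4.35), Has1 (4.05), Tnfaip6 (3.26) and Has3 (0.163). Vcan thus moved from the fifth place to second, ahead of Acan and Hapln1. The order in SIRT5F101L was the same as in WT, with Cd44 at 118, Vcan at 51.0, Acan at 19.1 and Hapln1 at 15.8 RPKM. Has2, Has1 and Tnfaip6 overlapped as neighbours in both plasmid groups, and the other neighbours did not. With longest transcripts in place of exon length, mean Has1 stood above mean Has2 in both plasmid groups.

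The libraries labelled SIRT5F101L were also tested against those labelled WT. No member passed in this comparison, with 0 of 9 called by edgeR where 0.0421% of all genes were called (0.0281% higher, 0.0140% lower, and 0.0140% called with at least a 2-fold change). Of the members, 3 of 9 were at an unadjusted p under 0.05 (1701 of 14253 genes) and DESeq2 called 1 member, where it called 0.448% of the genes to which it gave an adjusted p. The edgeR shares changed when single libraries were left out. Without SIRT5F101L replicate 1, edgeR called 2212 of 14528 genes (15.2%) in place of 6, and 2 of the 9 members (Acan and Vcan) in place of 0. A call in that fit is therefore not particular to a member. Without any other library of these 2 groups, edgeR called no gene. Acan was lower in SIRT5F101L than in WT by a log2 fold change of -0.37 (SE 0.07, 95% interval -0.52 to -0.21), with no overlap between the groups (4.02% of all genes showed none) and an edgeR adjusted p of 0.0941. It was called in 4 of 16 alternatives, including the fit without SIRT5F101L replicate 1 (-0.35, edgeR adjusted p 0.000992), the correction for transcript length (-0.42, edgeR adjusted p 0.0104, with 0.107% of all genes called) and DESeq2 (-0.36, adjusted p 0.00417). The DESeq2 and edgeR adjusted p over the 16 ran from 7.31e-05 to 0.397, and the sign was the same in each. The summed chondrocyte markers were also lower in SIRT5F101L than in WT without overlap, 1 of 14 being called (Col11a2, lower), and their part in the Acan difference was not tested.

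Vcan went the other way, with a log2 fold change of 0.23 with SE 0.07 (95% interval 0.08 to 0.39, edgeR adjusted p 0.355). Without SIRT5F101L replicate 1 it was 0.31 (edgeR adjusted p 0.000366, in the fit that called 15.2% of all genes), and with the correction for transcript length it was 0.11 (edgeR adjusted p 0.385). Has2 had a log2 fold change of 0.23 (95% interval 0.03 to 0.42, edgeR adjusted p 0.371). The other 6 intervals included 0: -0.09 to 0.17 for Cd44, -0.22 to 0.07 for Hapln1, -0.27 to 0.08 for Hyal2, -0.06 to 0.39 for Has1, -0.18 to 0.43 for Tnfaip6 and -0.44 to 1.01 for Has3. These intervals show how large a difference between the 2 labelled groups the data allow, not that the groups are alike.

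**Figure D3:**
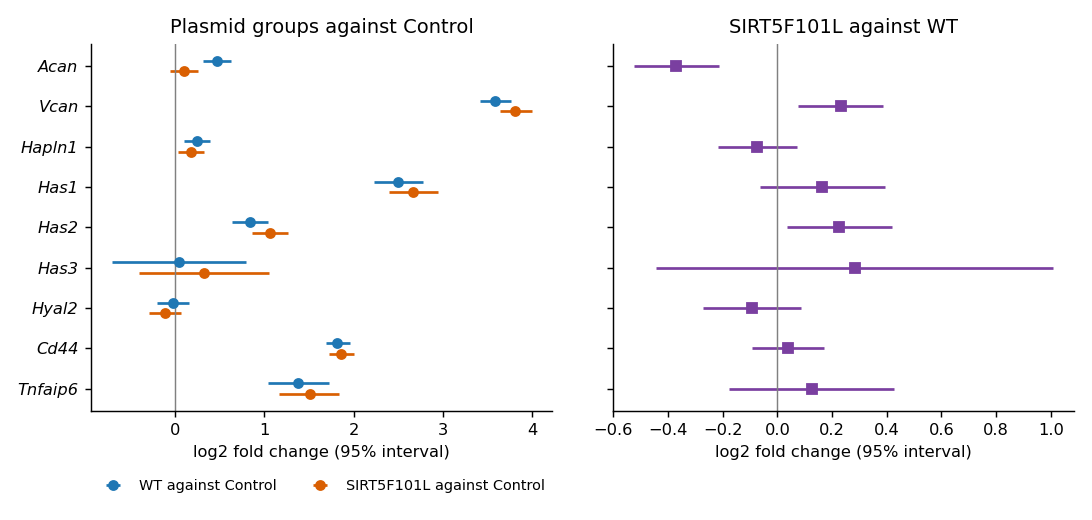
Log2 fold changes of the 9 tested members with 95% intervals from the edgeR fit (horizontal axes), for each plasmid group against Control on the left and for SIRT5F101L against WT on the right. The left panel shows Vcan near 3.6 to 3.8 and Acan, Hapln1, Hyal2 and Has3 under 0.5; the right panel spans a narrower range, with Acan below 0 and Vcan and Has2 above it.

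Other genes of hyaluronan and proteoglycan handling were examined as a list of 44, of which 27 were tested. In each plasmid group 12 were called higher and 10 lower against Control, where 28.7% of all genes were called higher and 28.1% lower in WT, and 30.0% and 30.7% in SIRT5F101L. The counts by role below are read against these shares and, with 2 to 7 genes tested in each role, are descriptions. The list had a median log2 fold change of 0.02 in WT and 0.03 in SIRT5F101L. Between the plasmid groups 0 of 27 were called by edgeR, and 4 had an unadjusted p under 0.05. Without SIRT5F101L replicate 1, 3 were called, all higher in SIRT5F101L, where 6.66% of all genes were called higher and 15.2% in either direction: Gfpt1, Gfpt2 and Adamts5, the first and last named after their values were seen.

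Of the genes of UDP-sugar supply, enzymes and the transporter Slc35d1, 5 of 7 tested rose and 1 fell in each plasmid group. Uap1, which makes UDP-N-acetylglucosamine, rose from 69.6 to 75.4 CPM over Control libraries to 471 to 535 in WT and 486 to 523 in SIRT5F101L (log2 fold changes 2.77 and 2.80, edgeR adjusted p 2.84e-18 and 2.30e-18). Ugdh, which makes UDP-glucuronic acid, rose from 325 to 339 CPM to 965 to 1051 and 997 to 1040 CPM (1.57 and 1.61, edgeR adjusted p 1.74e-15 and 1.08e-15). Gfpt2, an entry enzyme of the hexosamine pathway, rose from 12.9 to 14.7 CPM to 35.0 to 40.9 and 44.5 to 49.95 CPM (1.51 and 1.77, edgeR adjusted p 1.76e-12 and 1.20e-13). None of these 3 overlapped with Control in any library. Ugp2, which makes UDP-glucose, was the member of this set that fell (-0.51 and -0.43).

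Among receptors and cell-surface binding genes, 4 of 5 tested rose and 1 fell in each plasmid group. Hmmr, a hyaluronan-binding protein that also acts on the mitotic spindle, had log2 fold changes of 1.47 and 1.57 (edgeR adjusted p 1.04e-10 and 3.21e-11). Tlr4 (1.10 and 1.19, edgeR adjusted p 1.70e-11 and 4.68e-12) and Tlr2 (1.05 and 1.17, edgeR adjusted p 2.41e-10 and 4.42e-11), innate immune receptors that have been studied as sensors of hyaluronan fragments, rose too. Stab1, a scavenger receptor gene, fell (-1.67 and -1.52). Of the heavy chains and partners, 1 of 2 tested was called. Itih5, a relative of the heavy chains that TSG-6 transfers, rose from a mean of 29.0 ± 1.78 CPM (SD, n = 4) to 117 ± 7.03 and 125 ± 8.64 (2.01 and 2.11, edgeR adjusted p 2.94e-15 and 1.30e-15).

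Of the genes for hyaluronan breakdown, 1 of 5 tested rose and 3 fell in each plasmid group. Cemip, which encodes a hyaluronan-degrading protein, fell from 369 ± 48.7 CPM (SD, n = 4) to 161 ± 14.2 in WT and 168 ± 19.5 in SIRT5F101L (log2 fold changes -1.20 and -1.14, edgeR adjusted p 1.36e-09 and 2.63e-09). Hexa, a lysosomal exoglycosidase subunit, fell from 465 ± 22.8 CPM to 180 ± 5.60 and 169 ± 12.3 (-1.36 and -1.46, edgeR adjusted p 1.46e-13 and 4.84e-14). Cemip2, which encodes a membrane-bound relative of CEMIP, rose (0.77 in both). Of 5 tested enzymes that cut aggrecan or versican, 4 were called lower and 0 higher in each plasmid group, Adamts9 among them (-1.08 and -0.97, edgeR adjusted p 9.22e-09 and 3.99e-08). Hyalectans and link proteins outside the members gave 1 higher (Hapln4, 0.57 and 0.45) and 1 lower (Bcan, brevican, -1.30 and -1.77) of 3 tested in each group. Of the 17 list genes that were not tested, Hyal3, Spam1, Ptx3 and Gnpnat1 were listed at 0 in all 12 libraries. These 4, and Slc35d1, Ugp2, Stab1, Cemip2, Hapln4 and Bcan, were named after their values were seen. Gnpnat1 encodes an enzyme of the hexosamine pathway that most cells use, so a 0 in these tables is given as listed and not as absence.

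**Figure D4:**
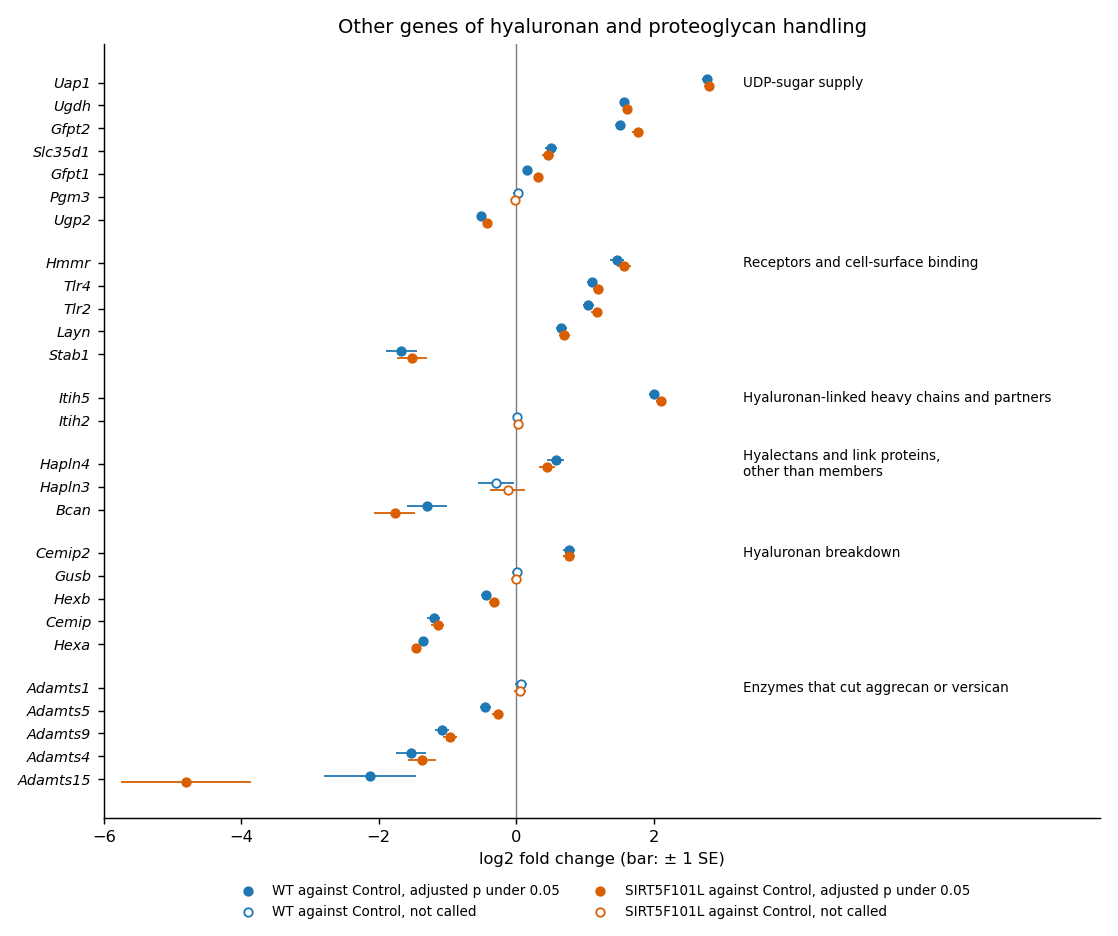
Log2 fold changes against Control with 1 standard error (horizontal axis) of the 27 tested list genes, grouped by role, for WT (blue) and SIRT5F101L (orange); filled points were called and open points were not. UDP-sugar and receptor genes lie mostly above 0, and breakdown enzymes and aggrecan-cutting enzymes mostly below it; Adamts15, at most 1.22 CPM in any library, has the widest error.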

How the data were processed

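RNA of 12 libraries was sequenced after capture with poly-T beads, as 150 bp paired-end reads, per the labels' protocols. The authors deposited raw counts, 1 whole number for each Ensembl ID. The submitters' processing notes name HISAT2 2.2.1, HTSeq 2.0.2 and the build GRCm39. The annotation and strand setting are not given in the sources used here. IDs were matched to symbols through a supplied table (52029 of 57010), and exon lengths and overlaps came from GENCODE M21, an annotation of GRCm38.

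No 2 libraries were identical. Within groups, counts differed by 2.56 to 8.92 times sampling noise (median chi-square over genes against its value under sampling noise), the values above 5.80 all involving SIRT5F101L replicate 1. Libraries were numbered in accession order, which pairs nothing. Genes kept by filterByExpr were fitted with edgeR 4.0.16 in R 4.3.3 (TMM scaling, 1 mean per group, quasi-likelihood F test, all 12 libraries, 9 residual degrees of freedom). Tests were 2-sided, and an adjusted p under 0.05 was called. A standard error is the log2 fold change divided by the square root of F. Counts of 3 or fewer were taken as the floor; 1 count is worth 0.0413 to 0.0662 CPM before TMM scaling, and floors cover counting error only, since there were no molecular identifiers. The pipeline was tested on simulated data.

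The members and lists were chosen with earlier results of these data known. All 9 tested members were named in each comparison, and Hyal1 as not tested. Against Control, the 10 called list genes of lowest adjusted p with a mean of at least 1 CPM were named too. Between the plasmid groups edgeR called no list gene. For 6 members the 3 genes with the most similar levels were named. Alternatives tried were: scaling by RLE or upper quartiles, filters of at least 1 count over the 12 libraries or of a mean of 1 CPM, a robust prior, the 8 libraries compared, DESeq2 (1.42.0), each library's loess trend on exon length (span 0.5) as an offset, and leaving out each library in turn.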

Additional observations from a re-analysis of the deposited data

Results flagged for a closer look

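The 9 detected members and the 3 ratios were screened for a library far from the other 3 of its group, by the gap to the nearest library divided by the range of the group. Of 36 screens 2 passed the 95% critical value of Dixon for 4 samples, where chance gives 1.8. Control replicate 2 had a log2 ratio of Vcan to Acan of -2.05 (-2.054, against -2.40 to -2.34 in the others, gap 0.830 of the range), beside an Acan level of 111 CPM, the lowest of its group. WT replicate 2 had Has2 at 47.4% of the synthases (51.9% to 52.2% in the others, gap 0.948 of the range), beside the highest Has1 level of its group at 20.4 CPM. No cause was tested for either value.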

How the results depend on the processing

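Over the alternatives, the number of members called was 7 in WT and 5 or 6 in SIRT5F101L against Control, and 21 or 22 and 21 to 23 list genes were called. In the same fits, 52.1% to 61.3% of all genes were called in WT and 55.6% to 64.6% in SIRT5F101L, and 32.5% and 34.6% with no filter beyond 1 count, which tests many more genes of low counts. All of the values for Vcan, Has1, Has2, Cd44 and Tnfaip6 against Control, and for Acan and Hapln1 in WT, kept their direction and their call. Signs turned only where no change was called. Has3 in WT turned to 0.00 (-0.0027) with upper-quartile scaling, -0.01 (-0.0052) with the length trend as offset, and -0.05, -0.04 and -0.12 without Control replicate 3, Control replicate 4 and WT replicate 2 (range over left-out libraries -0.12 to 0.24). Hyal2 in WT turned to 0.03 (0.0329) with the length trend, 0.00 (0.0040) without Control replicate 4 and 0.04 (0.0436) without WT replicate 1 (range -0.05, or -0.0513, to 0.04). With the length trend, Acan in SIRT5F101L against Control turned to -0.01 (-0.0131) and Cd44 between the plasmids to 0.00 (-0.0021). Between the plasmids 0 members were called in the reported fit, 1 with no filter beyond 1 count, 1 with the length trend, 1 by DESeq2, and 0 to 2 when 1 library was left out, the 2 being Acan and Vcan without SIRT5F101L replicate 1. List genes called there were 0 to 3 when 1 library was left out. Of all genes 6 were called, and 354 with no filter, 2 with a robust prior, 15 with the length trend, 2 with only the 8 libraries compared, 44 by DESeq2, and 0 to 2212 when 1 library was left out, 2212 without SIRT5F101L replicate 1 and 0 without any other library of these 2 groups (Control libraries were not left out for this comparison). The cause was not tested. Lengths set the size of the ratios, and in the plasmid groups also the order of Has1 and Has2. With longest transcripts, log2 Vcan to Acan was -2.09, 1.01 and 1.61 in Control, WT and SIRT5F101L, and the Has2 percentage 69.3, 45.0 (44.95) and 46.2. With undivided counts, Vcan to Acan was -1.34, 1.77 and 2.36, Hapln1 to Acan -0.69, -0.92 and -0.62, and the Has2 percentage in Control 70.9. No paired analysis was possible because the replicate numbers used here follow only the order of deposition. Hyal1, listed at 0, could not be tested, and Has3 rests on 10 to 39 counts a library.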

Other observations

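Genes whose levels over the 12 libraries were most like those of a member were found by the root mean square difference of log2 CPM (pseudocount 0.1), each gene centred on its own mean, among 9778 named genes whose mean was 5 CPM or more. The libraries share their groups, so these are descriptions. Vcan was nearest to Hspa4l (0.0893), a heat shock protein gene at 24.8, 286 and 318 CPM in Control, WT and SIRT5F101L, then to F5 (0.113), coagulation factor V, and Nrcam (0.138), a cell adhesion gene. Acan was nearest to Arl10 (0.0755), Sdad1 (0.106) and Mmp28 (0.117), the last a matrix metalloproteinase gene at 16.1, 19.8 and 17.9 CPM. Hapln1 was nearest to Golim4 (0.0635), Ergic2 (0.0676) and Agpat1 (0.0707). Has2 was nearest to Nab1 (0.0637), Samd9l (0.0688) and Tiparp (0.0707). Cd44 was nearest to St3gal1 (0.0632), a sialyltransferase gene, Bdnf (0.0699), a neurotrophin gene that rose from 52.0 to 195 and 199 CPM, and Slc39a14 (0.0701), a zinc and iron importer gene. Tnfaip6 was nearest to Nek2 (0.118), Gbp2 (0.128) and Mlph (0.132).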
